A study of Arabidopsis thaliana with 8 samples.

Results

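The transcriptome of *pwr-2* seedlings was compared with that of Col-0 seedlings at 23°C. The comparison rests on 4 of the 8 RNA-seq libraries of the series, chosen by genotype and temperature: Col-0 replicates 1 and 2 and *pwr-2* replicates 1 and 2. Col-0 is the wild-type Arabidopsis accession, and *pwr-2* is a T-DNA insertion allele of *POWERDRESS* (*PWR*, AT3G52250) in the Col-0 background. All seedlings were 6 days old and grew at 23°C in short days of 8 hours of light and 16 hours of dark. Total RNA came from pooled whole seedlings, about 100 for each biological replicate by the labels, so roots, cotyledons and the first leaves were measured together. Whether that number holds for each library or was split over the temperatures is not clear from the sources. The other 4 libraries are the same genotypes after 2 hours at 27°C, and they are used here only beside the 23°C values. In the text, 2 values for a genotype are always given as replicate 1 and then replicate 2, and a pair means *pwr-2* and Col-0 of the same replicate number.

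PWR is a protein with SANT domains that works with the histone deacetylase HDA9. Histone deacetylases remove acetyl groups from histone tails, and loss of this activity is usually followed by higher acetylation at target genes. HDA9 and PWR are known in Arabidopsis for roles in leaf senescence and flowering. Seedlings draw first on storage proteins and oil from the seed and then on photosynthesis, and genes for amino acid breakdown and for the response to darkness are switched on when carbon runs short.

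No gene passed edgeR's quasi-likelihood test with the replicate number as a block, out of 19170 tested (0% called, lowest adjusted p = 0.976). At an unadjusted p under 0.05 edgeR gave 868 genes (4.53%), of which 344 were higher in *pwr-2* (1.79%) and 524 were lower (2.73%). DESeq2 with the same block called 46 genes, 7 higher (0.0374%) and 39 lower (0.208%), and its prior on fold changes reduced this to 35. What follows is therefore described by how large a difference was and by whether both pairs lay on the same side. The gene lists below were chosen with earlier results of these data known. A list count above the share of all genes is thus a description and no independent support. At least 2-fold differences in the same direction in both pairs were found for 150 higher genes (0.782%) and 298 lower genes (1.55%). Differences of that size in opposite directions were found for 622 genes, more than the 448 that went the same way.

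The 4 libraries differed in depth and in content. Total counts were 7379650 and 15733741 in Col-0 and 10820853 and 13966181 in *pwr-2*. Levels differed by more than 2-fold between the Col-0 replicates for 29.2% of 19079 nuclear genes and between the *pwr-2* replicates for 13.6%. Organelle transcripts took 6.77% and 0.296% of the counts in Col-0 and 6.49% and 0.0374% in *pwr-2*, so they separated replicate 1 from replicate 2 in both genotypes. The 5 leaf markers summed to 23592 and 34949 CPM (counts scaled to a common library size by TMM) in Col-0 and 44820 and 26205 CPM in *pwr-2*, and the 6 root markers to 2640 and 3448 CPM and to 2504 and 2251 CPM. Both tissues were thus present in every library, as the label of whole seedlings says. Of the 5 flower and pollen markers none passed the count filter, and VGD1 and TIP5;1 were at 0 in all 4 libraries. The 5 embryo and seed markers summed to 488 and 327 CPM in Col-0 but to 351 and 3.1 CPM in *pwr-2*, so replicate 2 of *pwr-2* stands apart in seed transcripts.

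Promoter sequences are shown for 4 genes to which the results return, namely 2 seed albumins and a threonine aldolase that were lower in *pwr-2* and a heat-shock gene that differed in opposite directions in the pairs. Each sequence is the 250 bases before the annotated gene start in RefSeq TAIR10.1, written on the strand of the gene. Capitals mark every match on either strand to CACGTG (the G-box, bound by bZIP and bHLH factors), CATGCA (the RY element, bound by seed B3 factors such as ABI3), GAANNTTC (a heat-shock element, bound by heat-shock factors) and ACTCAT (bound by bZIP factors at the proline dehydrogenase gene), and overlapping matches run together.
SESA3 (AT4G27160, + strand, chr4:13611546-13611795): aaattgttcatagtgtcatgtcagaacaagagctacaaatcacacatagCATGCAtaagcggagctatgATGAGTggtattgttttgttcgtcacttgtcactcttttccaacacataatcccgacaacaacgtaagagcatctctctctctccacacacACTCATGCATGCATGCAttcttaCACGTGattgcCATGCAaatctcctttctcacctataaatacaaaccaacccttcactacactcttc
SESA2 (AT4G27150, + strand, chr4:13609091-13609340): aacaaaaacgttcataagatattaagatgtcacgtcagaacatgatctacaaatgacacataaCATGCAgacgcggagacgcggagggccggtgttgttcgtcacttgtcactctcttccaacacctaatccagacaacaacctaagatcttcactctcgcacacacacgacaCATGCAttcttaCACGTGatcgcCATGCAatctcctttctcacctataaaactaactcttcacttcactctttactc
THA1 (AT1G08630, − strand, chr1:2747968-2748217): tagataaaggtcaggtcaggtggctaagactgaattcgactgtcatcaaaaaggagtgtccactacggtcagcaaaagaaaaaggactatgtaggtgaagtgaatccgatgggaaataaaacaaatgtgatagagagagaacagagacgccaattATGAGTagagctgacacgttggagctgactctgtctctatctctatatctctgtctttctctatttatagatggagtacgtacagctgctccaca
HSP17.4 (AT3G46230, − strand, chr3:16984868-16985117): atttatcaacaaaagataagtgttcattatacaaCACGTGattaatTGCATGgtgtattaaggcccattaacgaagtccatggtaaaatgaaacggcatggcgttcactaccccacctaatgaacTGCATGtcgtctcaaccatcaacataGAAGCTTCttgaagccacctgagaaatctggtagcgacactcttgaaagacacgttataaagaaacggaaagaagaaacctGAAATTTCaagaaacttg

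In SESA3 the G-box begins 67 bases before the gene start and is flanked by a run of overlapping RY elements on one side and by a single RY element 56 bases before the start on the other. SESA2 has single RY elements on both sides, with the G-box at 65 bases and the RY elements at 77 and 54 bases. Among the seed genes tested, 12 of 22 promoters held a G-box and 12 of 22 an RY element, where 7.55% and 7.66% of the promoters of 18756 tested protein-coding genes did. In HSP17.4 heat-shock elements begin 99 and 18 bases before the start, and 7 of 31 promoters of heat-shock genes held one, against 9.23% of all. Of the amino acid breakdown genes, 3 of 17 held ACTCAT, against 11.8% of all. These are matches of letters and were not measured as bound sites.

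PWR itself was lower in both pairs. The gene lies on the + strand of chromosome 3 (chr3:19376138-19383369, TAIR10.1) and has 5 exons. Its level was 57 and 74.8 CPM in the Col-0 libraries and 15.4 and 11.2 CPM in *pwr-2*, with no overlap between the genotypes. The log2 fold change was −2.32 ± 0.35 (SE), about 4.98-fold, with an edgeR adjusted p of 0.976 and a DESeq2 adjusted p of 0.019. The count covers the whole gene, so it does not show which part of the transcript the remaining reads came from. Of the 5 annotated neighbours on each side, 8 passed the count filter, and none differed by 2-fold in both pairs. The nearest, AT3G52240 upstream and the pseudouridine synthase gene AT3G52260 downstream, had log2 fold changes of −0.50 ± 0.26 and −0.70 ± 0.36. HDA9, the deacetylase partner of PWR, differed by −0.43 and −0.50 in the pairs (log2 fold change −0.47 ± 0.26). HOS15, a further member of the complex, lay at 49.4 and 48.8 CPM against 45.2 and 53.7 CPM. Among 13 other deacetylase genes the median log2 fold change was −0.02, and among 7 genes for the SWR1 complex and the histone variant H2A.Z it was −0.16.

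**Figure D1:**
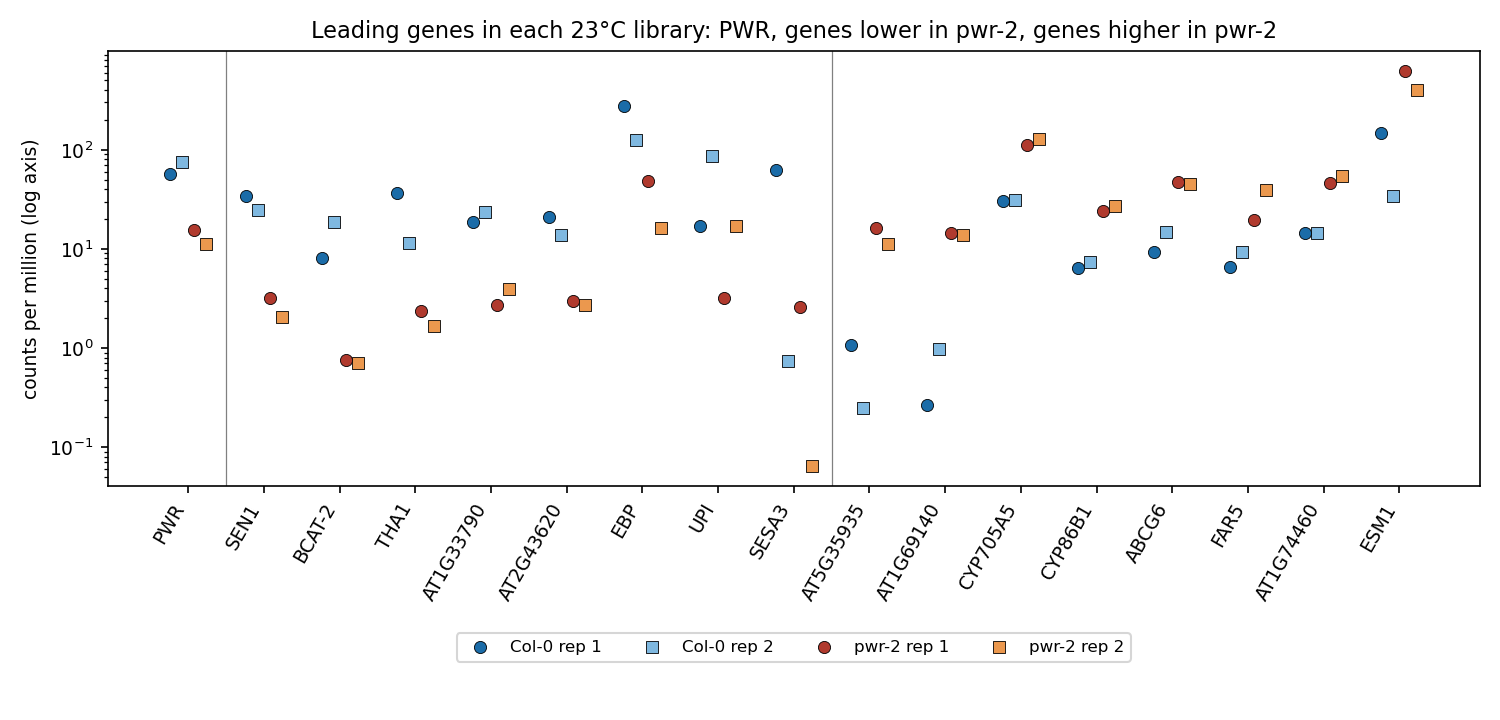
Level of PWR and of 16 leading genes in each 23°C library, in CPM on a log axis, where each point is a library. PWR and 7 of the 8 genes in the middle block lie lower in both *pwr-2* libraries than in both Col-0 libraries, for UPI by no more than 17 against 17.2 CPM, while SESA3 overlaps between the genotypes and the 8 genes on the right lie higher in both *pwr-2* libraries.

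Genes for amino acid breakdown were lower in *pwr-2*. All 17 members passed the count filter, and 16 were lower in both pairs, where 26.6% of all genes tested were. The median log2 difference was −1.27 in pair 1 and −1.31 in pair 2, and the median log2 fold change was −1.31, where the median of all genes tested was −0.02. The like medians joined groups that were uneven in opposite ways. The 10 genes of branched-chain breakdown had medians of −0.53 and −1.26 in the pairs, and 1 was at least 2-fold lower in both. The 7 genes for other amino acids had medians of −1.91 and −1.31, and 6 were at least 2-fold lower in both. In 14 of 17 genes both *pwr-2* libraries lay below both Col-0 libraries, against 14.1% of all genes. At an unadjusted edgeR p under 0.05 there were 11 lower members (2.73% of all genes) and none higher (1.79% of all genes). DESeq2 called 3 of the 17 lower, against 0.208% of all genes. Leaving out each library in turn, in fits without the block, moved the median between −0.63 (without Col-0 replicate 2) and −1.73 (without *pwr-2* replicate 2).

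BCAT-2, a transaminase that takes the first step in the breakdown of branched-chain amino acids, was at 8.05 and 18.6 CPM in Col-0 and at 0.752 and 0.71 CPM in *pwr-2*. Its log2 fold change was −4.11 ± 0.51 (DESeq2 adjusted p = 0.000755). Further down the same route, the dehydrogenase subunit DIN4 had a log2 fold change of −1.16 ± 0.38, isovaleryl-CoA dehydrogenase IVD of −1.31 ± 0.38 and the carboxylase subunit MCCA of −2.02 ± 0.60. The size of these differences was uneven, since MCCA stood at 14.1 and 90 CPM in Col-0 and 7.09 and 11.4 CPM in *pwr-2*, with Col-0 replicate 2 far above the rest. THA1, a threonine aldolase that splits threonine into glycine and acetaldehyde, was at 37 and 11.6 CPM in Col-0 against 2.36 and 1.68 CPM (log2 fold change −3.37 ± 0.44, DESeq2 adjusted p = 0.000755). MGL, which degrades methionine, was at 191 and 47.3 CPM against 36.1 and 14.8 CPM (−2.04 ± 0.34, DESeq2 adjusted p = 0.04). Both genes were higher in replicate 1 than in replicate 2 of each genotype, and the genotypes did not overlap. PRODH1 (annotated as ERD5), the proline dehydrogenase, had 51 and 107 CPM in Col-0 and 18.1 and 31.1 CPM in *pwr-2*. The glutamate dehydrogenase GDH1, the lysine-degrading enzyme AT4G33150 and the homogentisate dioxygenase HGO of tyrosine breakdown had log2 fold changes of −1.52 ± 0.33, −1.58 ± 0.30 and −1.52 ± 0.33. The exception was ETFBETA, an electron-transfer subunit, with differences of −0.44 and 0.53 in the pairs.

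Genes induced by darkness and carbon starvation were lower in *pwr-2* mainly in pair 2. Of 22 members tested, 15 were lower in both pairs (26.6% of all genes) and none was higher in both. The list median was −0.51 in pair 1 and −3.07 in pair 2. Col-0 replicate 2 carried the size of this difference: the mean level of the list was 2.24 above the mean of the 4 libraries there, and −0.48, −1.33 and −0.44 in Col-0 replicate 1 and the *pwr-2* replicates. The median log2 fold change of −1.62 was −2.69 without the block, and in such fits −0.14 without Col-0 replicate 2, −3.37 without Col-0 replicate 1 and −3.29 without *pwr-2* replicate 2. DESeq2 called 6 members lower, against 0.208% of all genes, and 7 were at least 2-fold lower in both pairs, against 1.55%.

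SEN1 (DIN1), a senescence-associated gene that is induced in the dark, was the exception to this unevenness. It was at 34 and 24.8 CPM in Col-0 and at 3.22 and 2.07 CPM in *pwr-2*, with pair differences of −3.33 and −3.49. Its log2 fold change of −3.49 ± 0.30 corresponds to 11.2-fold and had the lowest unadjusted edgeR p of all genes that were 2-fold apart in both pairs (DESeq2 adjusted p = 0.000107). AT4G27450 and AT3G15450, which encode related proteins annotated as aluminium induced, are strongly expressed in starved plants. AT3G15450 was at 12.5 and 621 CPM in Col-0 and at 2.36 and 18.3 CPM in *pwr-2*, so the replicates of one genotype differed by more than the genotypes of one pair. ASN1 (DIN6), the asparagine synthetase of dark-treated leaves, showed the same picture with 11 and 232 CPM against 5.27 and 11 CPM. The F-box gene AT1G80440 and the glycine-rich protein gene AT2G05540 had pair differences of −1.69 and −3.91 and of −1.35 and −4.26. DIN2, a beta-glucosidase gene of the same list, differed in opposite directions (−3.82 and 2.17). The sugar-signalling members, trehalose-phosphate synthase genes among them, had a median of −0.24 in pair 1 and −2.41 in pair 2, and DESeq2 called none of those 6.

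Transcripts of seed storage proteins, oil bodies and late embryogenesis were lower in *pwr-2*, but the libraries of the genotypes overlapped. Of 32 listed genes 22 passed the count filter. In both pairs 19 were lower (26.6% of all genes) and none was higher. Of the 19, 11 were lower by at least 2-fold in both pairs (1.55% of all genes). DESeq2 called 6 members lower (0.208% of all genes). The median was −2.03 in pair 1 and −2.62 in pair 2. The mean level of the list was 2.46 in Col-0 replicate 1, −0.07 in Col-0 replicate 2, 0.58 in *pwr-2* replicate 1 and −2.97 in *pwr-2* replicate 2. In 6 of 22 genes both *pwr-2* libraries lay below both Col-0 libraries, against 14.1% of all genes. The median log2 fold change was −2.65 with the block and every library. In fits without the block it was −0.32 without Col-0 replicate 1 and −4.86 without *pwr-2* replicate 1. In pools of whole seedlings, fewer cells that hold such transcripts and less RNA per cell cannot be told apart.

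The 2S albumin SESA3, whose promoter is shown above, had counts of 462 and 12 in Col-0 and 24 and 1 in *pwr-2* (log2 fold change −4.38 ± 0.43, DESeq2 adjusted p = 0.000384). SESA2 had counts of 351 and 27 against 42 and 1. Both genes were lower within each pair, but Col-0 replicate 2 lay below *pwr-2* replicate 1. In a fit without Col-0 replicate 1, which has no block and so also sets Col-0 replicate 2 beside *pwr-2* replicate 1, their log2 fold changes were 0.77 and 0.42. The SESA genes are similar tandem copies, and how reads shared between copies were counted is not given in the sources used here. PAP85, a vicilin-like cupin of the seed, had counts of 163 and 20 against 8 and 1. Its log2 fold change was −4.50, and −1.52 in a fit without Col-0 replicate 1 and without the block. OLEO1, the main oleosin of seed oil bodies, had counts of 377 and 170 against 145 and 2. The 12S globulins CRA1 and CRU3 were nearly equal in pair 1 (−0.22 and 0.06) and far apart in pair 2 (−7.30 and −5.89). The late embryogenesis gene AT3G17520 was at 135 and 25.6 CPM in Col-0 and 36.6 and 2.65 CPM in *pwr-2* (DESeq2 adjusted p = 0.00851). RAB18, a dehydrin induced by abscisic acid, differed by −4.05 in pair 1 and by −0.13 in pair 2.

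Genes of the root triterpene clusters were higher in *pwr-2*. Thalianol and marneral are triterpenes made in Arabidopsis roots by enzymes whose genes sit side by side. All 7 members were higher in both pairs, where 24.6% of all genes were, and in 5 of 7 the genotypes did not overlap, against 13.2% of all genes. The median was 1.88 in pair 1 and 1.04 in pair 2. CYP705A5, an oxidase of the thalianol pathway, was at 30.5 and 31 CPM in Col-0 and at 113 and 128 CPM in *pwr-2*. Its log2 fold change of 1.97 ± 0.29 is 3.91-fold (DESeq2 adjusted p = 0.0353). Leaving out any library, in fits without the block, kept it between 1.88 and 2.08. THAS1, the thalianol synthase, had 72.3 and 15.4 CPM against 116 and 90.4 CPM, and MRN1, the marneral synthase, 2.01 and 14.6 CPM against 63 and 30 CPM. All 3 marneral genes leaned on pair 1, since CYP71A16 and CYP705A12, were higher in pair 1 (2.78 and 2.94) and nearly level in pair 2 (0.01 and 0.13). Without *pwr-2* replicate 1, in a fit without the block, the median log2 fold change of the list was 0.62.

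Suberin genes were picked out after their values had been seen, because several stood among the leading higher genes, and are given as a description only. Suberin is the waxy polymer in the walls of the root endodermis. Of 17 genes tested 12 were higher in both pairs (24.6% of all genes) and 6 by at least 2-fold (0.782% of all genes). CYP86B1, which oxidises very long fatty acids for suberin, was at 6.44 and 7.37 CPM in Col-0 and 24.2 and 27.3 CPM in *pwr-2*. The transporter ABCG6 had 9.39 and 14.9 CPM against 47.8 and 45.4 CPM, and the fatty acid reductase FAR5 had 6.58 and 9.22 CPM against 19.6 and 38.8 CPM. FACT, an acyltransferase of root waxes, went the other way in both pairs (−0.77 and −0.66). Of the 6 root markers, 2 were lower in both pairs, none was higher in both, and CASP1, a marker of the endodermis, differed by 1.80 in pair 1 and −0.70 in pair 2. The part of root tissue in the triterpene and suberin values was not tested.

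Iron storage genes were lower in 4 of 6 cases in both pairs (26.6% of all genes), 3 of them by at least 2-fold (1.55% of all genes). The ferritin gene FER1, which holds iron in plastids, was at 204 and 321 CPM in Col-0 and 51.7 and 63.6 CPM in *pwr-2* (log2 fold change −2.16 ± 0.36, DESeq2 adjusted p = 0.0107). FER4 had 40.1 and 77.3 CPM against 18.1 and 19.8 CPM. FER3 differed by 0.11 in pair 1 and by −1.54 in pair 2. Of 10 genes for iron uptake and deficiency, 6 were higher in both pairs (24.6% of all genes) and none was lower in both. IRT1, the root iron transporter, reached 40.8 CPM in *pwr-2* replicate 1 and 0.129 to 1.11 CPM elsewhere. CSD1 and CSD2, the cytosolic and plastid copper superoxide dismutases, were higher in both pairs, CSD2 mostly in pair 1, where Col-0 replicate 1 had a count of 130 and the other libraries 4525 to 5703.

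The leading higher genes were mostly not members of a list. Among the 7 genes that DESeq2 called higher, both with the largest log2 fold changes are annotated as pseudogenes. AT5G35935 (chr5:14083388-14089891, − strand) had counts of 8 and 4 in Col-0 and 151 and 173 in *pwr-2* (log2 fold change 4.61 ± 0.56, DESeq2 adjusted p = 0.000139). AT1G69140 (chr1:25991371-25992018, − strand) had 2 and 16 against 135 and 215 (4.46 ± 0.59, DESeq2 adjusted p = 0.000176). Of 196 annotated pseudogenes tested, 9 were at least 2-fold higher in both pairs (0.782% of all genes). A further 5 were at least 2-fold lower in both (1.55% of all genes). The median log2 fold change of all 196 was −0.11. ESM1, which steers glucosinolate breakdown towards isothiocyanates, was at 148 and 34.5 CPM in Col-0 and 630 and 403 CPM in *pwr-2* (2.82 ± 0.57, DESeq2 adjusted p = 0.000302). COR15B, which encodes a cold-induced plastid protein, was at 28.2 and 24.9 CPM against 91.1 and 212 CPM (2.39 ± 0.48, DESeq2 adjusted p = 0.00914). The glucosyltransferase gene UGT84A1 had counts of 51 and 14 against 266 and 82 and a log2 fold change of 2.31 ± 0.34, which in fits without the block was 0.51 without *pwr-2* replicate 1, 1.3 without Col-0 replicate 2 and 4.30 without Col-0 replicate 1. The related gene AT2G22590 had a log2 fold change of 2.64 ± 0.45, the lipase gene AT1G74460 of 1.79 ± 0.26 and TPPB, a trehalose-phosphate phosphatase gene, of 1.87 ± 0.31. AT2G30766 had counts of 14 and 0 against 214 and 7, so *pwr-2* replicate 1 alone was high. Without that library, in a fit without the block, its log2 fold change was −0.92. The gene is annotated as an uncharacterized protein.

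DESeq2 called 39 genes lower, and several that the paragraphs above did not name are given here one by one. EBP (RAP2.3), an ethylene response factor that is stable in low oxygen, was at 276 and 126 CPM in Col-0 and 47.9 and 16.1 CPM in *pwr-2* (log2 fold change −2.74 ± 0.35, DESeq2 adjusted p = 0.000174). UPI, a protease inhibitor induced by necrotrophic fungi, was at 17.2 and 86.4 CPM against 3.22 and 17 CPM, with pair differences of −2.36 and −2.34 on very unlike levels. Its log2 fold change of −2.38 was −0.74 without Col-0 replicate 2 and −4.0 without *pwr-2* replicate 2, in fits without the block. The chitinase family gene AT2G43620 had 20.9 and 13.9 CPM against 3.01 and 2.71 CPM, and the jacalin lectin gene AT1G33790 had 18.5 and 23.3 CPM against 2.69 and 3.94 CPM. AT4G12490 (AZI3), a lipid-transfer protein gene, had 22.1 and 11.6 CPM against 3.44 and 0.904 CPM. The peroxidase genes AT5G19890, AT5G39580 and AT5G64120 had log2 fold changes of −3.63 ± 0.36, −2.09 ± 0.28 and −2.38 ± 0.59. ST2A, which sulfates a hydroxylated jasmonate, had −2.81 ± 0.62. HIS1-3, a drought-induced linker histone, had 22.1 and 47.1 CPM against 3.33 and 12.1 CPM. Further called genes were UMAMIT20, a transporter gene of the nodulin MtN21 family, PSK4, a phytosulfokine precursor, SIP2, a raffinose-degrading enzyme, and GAT1_2.1, a glutamine amidotransferase-like gene. Of the 46 called genes, 44 passed edgeR's filter, and in 43 of these both pairs lay on the same side by at least 2-fold. The exception was the extensin gene AT1G26240, with counts of 483 and 0 in Col-0 and 20 and 1 in *pwr-2*. Of all genes tested, 0.782% were at least 2-fold higher in both pairs and 1.55% lower. The calls were made on these same pairs, so their agreement follows largely from the selection and is no independent support. The number of DESeq2 calls depended on single libraries. Without the block, leaving out Col-0 replicate 1 gave 402 calls, Col-0 replicate 2 gave 216, *pwr-2* replicate 1 gave 104 and *pwr-2* replicate 2 gave 2.

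**Figure D2:**
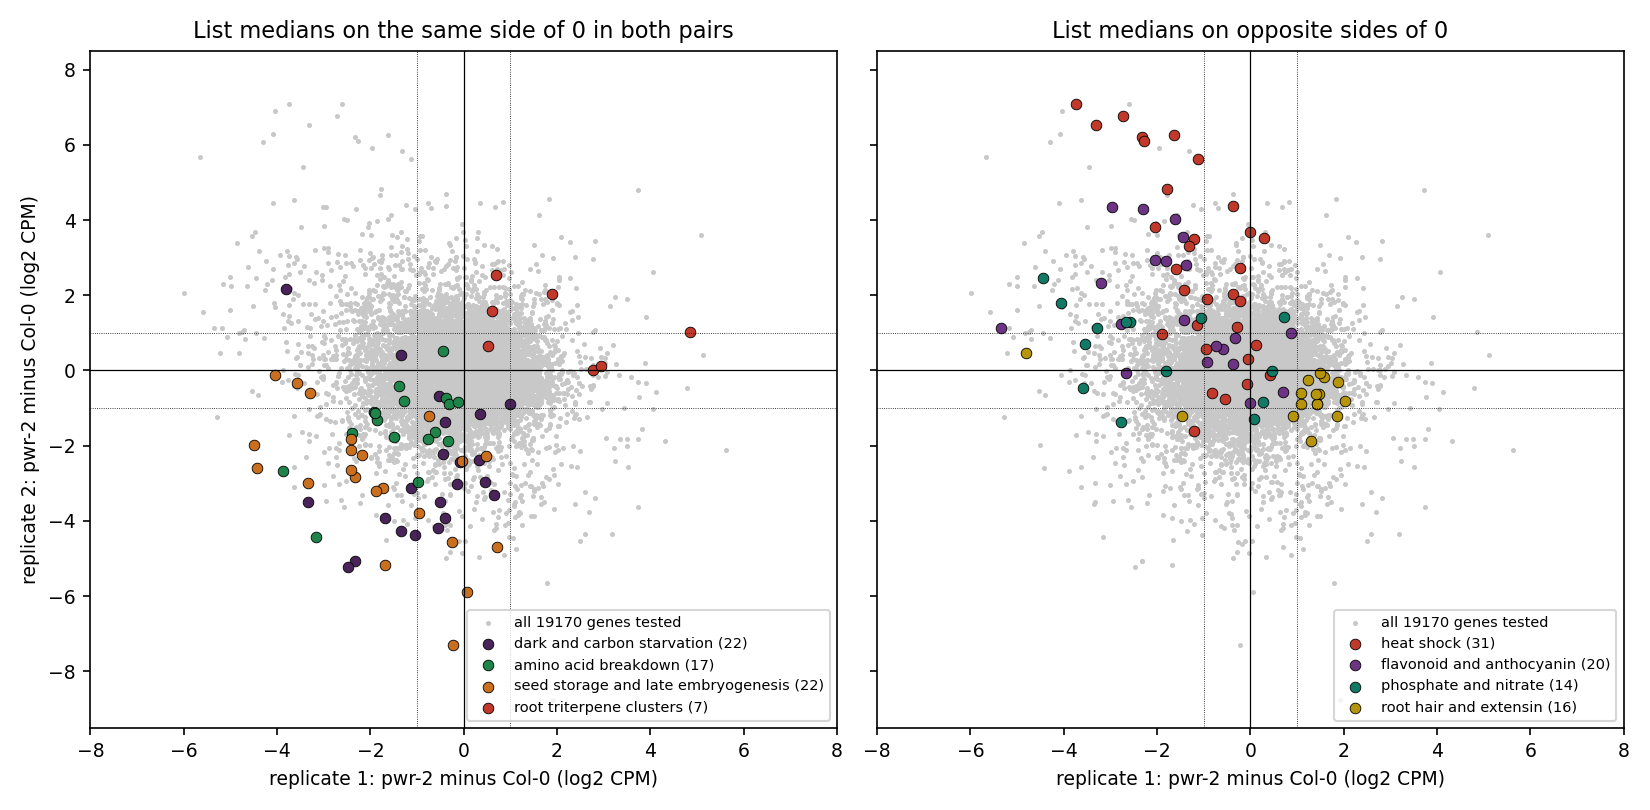
Difference between *pwr-2* and Col-0 in replicate 1 (x axis) and in replicate 2 (y axis), in log2 CPM, for the 19170 genes tested (grey) and for members of 8 gene lists (coloured), with dotted lines at 2-fold. Most amino acid breakdown and seed genes lie in the lower left and all 7 triterpene genes in the upper right, while 24 of 31 heat-shock genes and 16 of 20 flavonoid genes lie in the upper left and 14 of 16 root hair and extensin genes in the lower right.

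Many groups of stress genes lay on opposite sides in the pairs. Over all genes the direction in one pair said little about the other: 24.6% were higher in both pairs, 26.6% lower in both, 24% lower in pair 1 and higher in pair 2, and 24.8% the reverse. Pearson's r between the pair differences was −0.09 across these genes, which are not independent of each other. When genes were split into 4 equal bins by expression level, between 50.1% and 52.7% of a bin went the same way. At least 2-fold lower in pair 1 and higher in pair 2 were 422 genes (2.2%), and in 357 of them Col-0 replicate 1 was the highest library and in 65 *pwr-2* replicate 2. The reverse held for 200 genes (1.04%), with Col-0 replicate 2 the highest in 145 and *pwr-2* replicate 1 in 55.

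Heat-shock genes were lower in pair 1 and higher in pair 2 in 24 of 31 cases, with medians of −1.13 and 2.69. The small heat-shock proteins, chaperones that hold unfolding proteins, showed the widest gap, with medians of −1.70 and 5.87 over 12 genes. Their summed level was 43.9 and 13.4 CPM in Col-0 and 21.4 and 590 CPM in *pwr-2*. HSP17.4, whose promoter is shown above, had counts of 26 and 10 in Col-0 and 1 and 1634 in *pwr-2*. HSP17.6A had 28 and 10 against 4 and 1319. *pwr-2* replicate 2 alone was high, and without it, and without the block, the median log2 fold change of the heat-shock list went from 0.91 to −0.82. The 7 regulators tested, which are heat-shock factors, MBF1C and DREB2A, had medians of −0.83 and −0.36. HSFA7A was at 3.22 and 11.4 CPM against 1.29 and 3.62 CPM.

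Flavonoid and anthocyanin genes were lower in pair 1 and higher in pair 2 in 16 of 20 cases. DFR, an enzyme of anthocyanin synthesis, was at 864 and 0.86 CPM in Col-0 and 111 and 20.5 CPM in *pwr-2*, and its regulator TT8 at 63.6 and 0.307 CPM against 6.77 and 2.2 CPM. The mean level of the list was 2.29 and −2.36 in Col-0 and 0.77 and −0.71 in *pwr-2*, so the *pwr-2* libraries lay between the Col-0 libraries. FLS1, the flavonol synthase, was higher in both pairs (0.86 and 0.99). The *pwr-2* libraries likewise lay between the Col-0 libraries for the camalexin genes CYP71A12 (338 and 0.184 CPM against 20.3 and 41.8 CPM) and PAD3 (167 and 1.35 CPM against 13.8 and 12 CPM). Of 27 genes of salicylic acid and immunity, 9 were lower (26.6% of all genes) and 2 higher (24.6%) in both pairs. A further 13 were lower in pair 1 and higher in pair 2 (24% of all genes). FRK1, a receptor kinase induced by bacterial flagellin, was lower in both (8.59 and 5.78 CPM against 1.07 and 1.68 CPM). Of 24 jasmonate and ethylene genes 7 were lower (26.6% of all genes) and 4 higher (24.6%) in both pairs. LOX2 and AOS, which start jasmonate synthesis, were higher in both, by 0.83 and 4.49 and by 0.72 and 2.88. Abscisic acid and cold genes were lower and then higher in 18 of 24 cases, glucosinolate and myrosinase genes in 18 of 28, low oxygen genes in 11 of 19 and phosphate starvation genes in 7 of 9.

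The opposite order, higher in pair 1 and lower in pair 2, held for 14 of 16 root hair and extensin genes, with medians of 1.41 and −0.72. PRP3, a cell wall protein gene of root hairs, had counts of 172 and 290 in Col-0 and 785 and 118 in *pwr-2*. Nuclear photosynthesis genes followed in 17 of 28 cases, with 11 higher in both pairs, none lower in both and a median log2 fold change of 0.36. RCA, the activase of Rubisco, was at 3295 and 9870.3 CPM in Col-0 and 7786 and 5887 CPM in *pwr-2*. Chloroplast-encoded genes were higher and then lower in 53 of 61 cases, and mitochondrial genes were lower in both pairs in 22 of 30. Their part in the differences of nuclear genes was not tested.

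**Figure D3:**
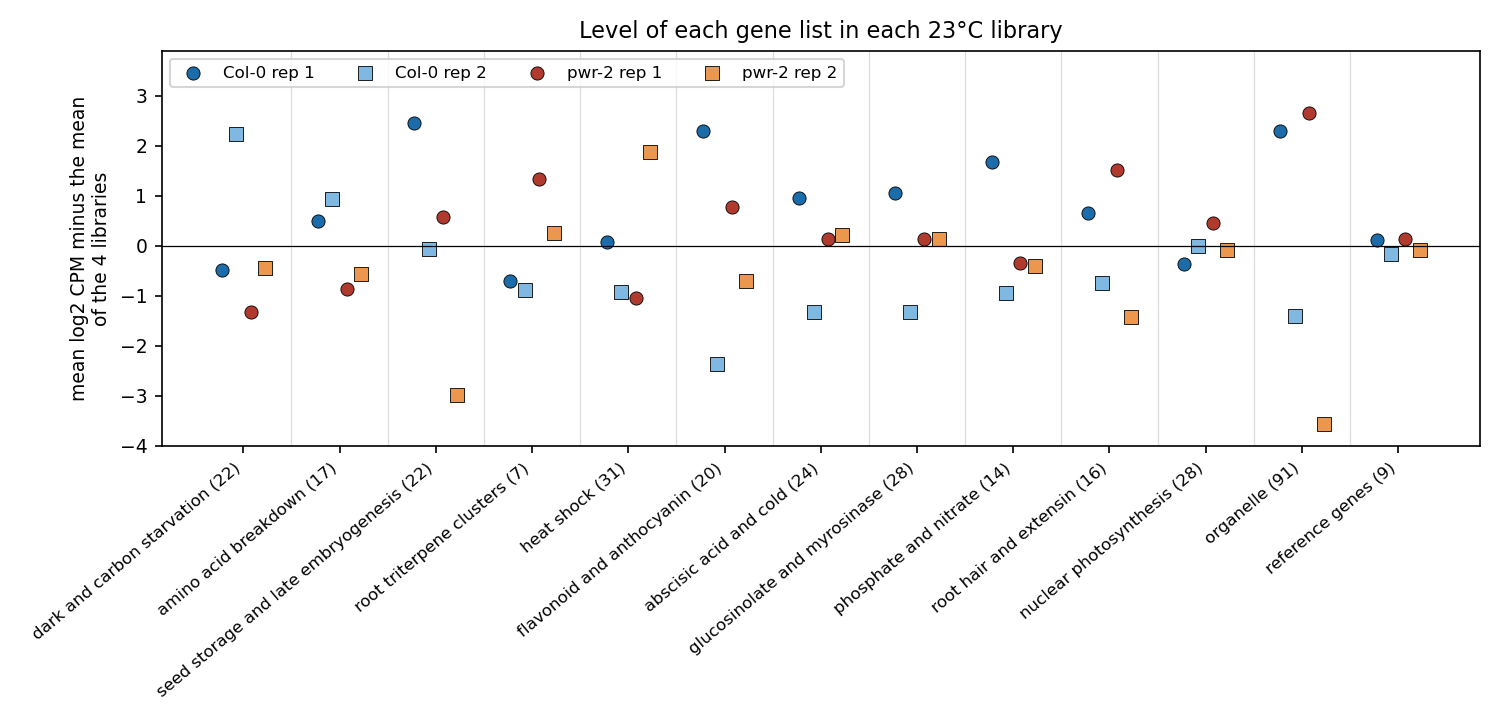
Mean level of 13 gene lists in each 23°C library, as log2 CPM minus the mean of the 4 libraries, where each point is a library and the number of genes tested is given in parentheses. The genotypes are apart for amino acid breakdown (Col-0 at 0.50 and 0.93, *pwr-2* at −0.86 and −0.57) and triterpene genes (−0.70 and −0.89, 1.34 and 0.25), and for the other lists at least 1 library of a genotype lies among those of the other.

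Growth, flowering and clock genes had medians near 0. PIF4, the transcription factor of warm-temperature growth, was at 79.3 and 91.4 CPM in Col-0 and 137 and 106 CPM in *pwr-2* (log2 fold change 0.50 ± 0.33), and the auxin synthesis gene YUC8 at 1.88 and 3.2 CPM against 3.01 and 2.52 CPM (0.13 ± 0.51). Over 22 light, auxin and growth genes the median was 0.00, with no gene 2-fold apart in both pairs. The auxin-responsive gene IAA1 was higher in both (4.43 and 9.34 CPM against 13.5 and 16.1 CPM). FLC, a repressor of flowering, was at 13 and 10.4 CPM in Col-0 and 4.19 and 3.75 CPM in *pwr-2*, with a log2 fold change of −1.55 ± 0.32 and a DESeq2 adjusted p of 1. CO, a promoter of flowering under long days, had counts of 2 and 10 against 15 and 38. The flowering signal gene FT was at 0 in all libraries but *pwr-2* replicate 2, with a count of 9. Of the 17 clock genes 4 were higher (24.6% of all genes) and 4 lower (26.6%) in both pairs. RVE8, a morning-expressed clock factor, was at 15 and 7.8 CPM against 6.56 and 2.2 CPM, and CCA1 at 72.7 and 63.7 CPM against 62.5 and 30.4 CPM. Over 9 reference genes the median log2 fold change was 0.08, with none 2-fold apart in both pairs.

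**Figure D4:**
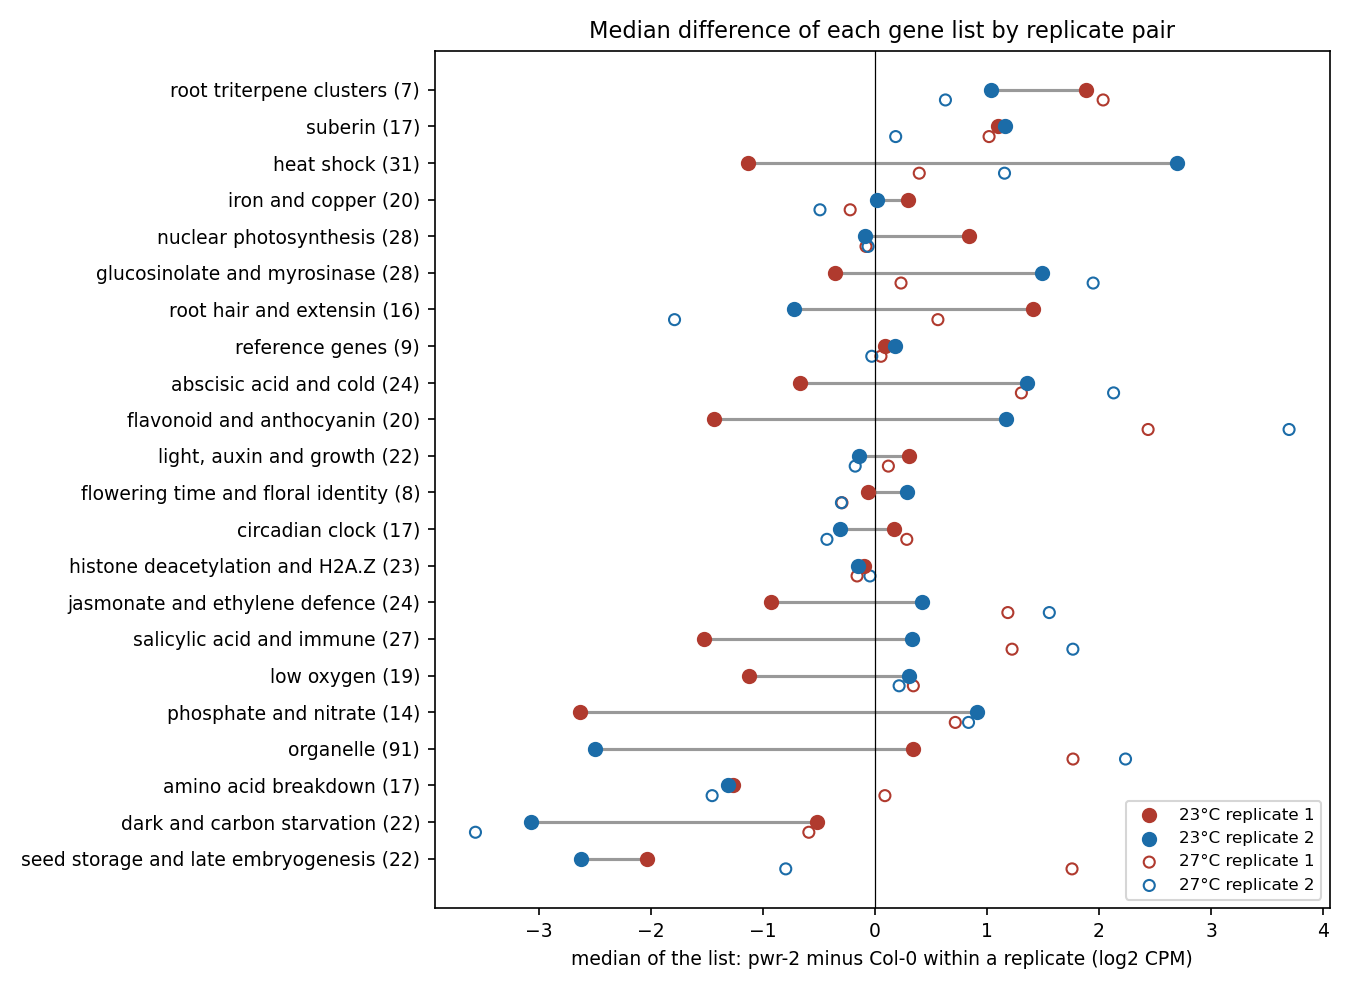
Median difference between *pwr-2* and Col-0 within each replicate pair for each gene list, in log2 CPM, at 23°C (filled, joined by a line) and at 27°C (open), with the number of genes tested at 23°C in parentheses. The 27°C medians cover the list genes that passed the filter over all 8 libraries, for salicylic acid and immunity 35 against 27 at 23°C. At 23°C amino acid breakdown genes lie at −1.27 and −1.31 and triterpene genes at 1.88 and 1.04, while heat-shock genes lie at −1.13 and 2.69.

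The 23°C differences were also set beside the 27°C libraries. The 27°C libraries are other samples than those at 23°C, with the same replicate numbers. List medians at 27°C cover the genes that passed the filter over all 8 libraries, for storage proteins 9 against 7 at 23°C. Of the 46 genes DESeq2 called at 23°C, 27 lay in both 27°C pairs on the side they had at 23°C, where 42.4% of all genes with a DESeq2 adjusted p did, and edgeR called 5 of the 46 at 27°C, where it called 160 genes higher (0.828%) and 42 lower (0.217%) of 19324. PWR differed by −1.84 and −2.01 at 27°C (edgeR adjusted p = 0.0376). AT5G35935 differed by 3.70 and 4.13, UPI by −2.40 and −3.16 and FER1 by −2.67 and −2.78, each with an edgeR adjusted p of 0.0315. The other leading pseudogene, AT1G69140, differed by 0.08 and 3.60 (edgeR adjusted p = 0.499). Its 27°C counts were 30 and 1 in Col-0 and 28 and 28 in *pwr-2*. Triterpene genes had medians of 2.04 and 0.63 in the 27°C pairs, with THAS1 called higher (edgeR adjusted p = 0.0412), and iron storage genes medians of −1.73 and −1.74, with 3 of 6 called lower. Dark and carbon starvation genes repeated their unevenness, with medians of −0.59 and −3.56. Of the 23 tested at 27°C, edgeR called 1 higher in *pwr-2* and none lower. Amino acid breakdown genes had medians of 0.09 and −1.45, and THA1 differed by 3.01 and −1.45. Late embryogenesis genes had medians of −1.87 and −2.63 at 23°C and 5.14 and 0.81 at 27°C, whereas storage proteins were lower at both temperatures (−3.04 and −2.20 at 27°C). Flavonoid genes, which differed in opposite directions at 23°C, were higher in both 27°C pairs (2.44 and 3.70), with 7 of 20 called.

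The interaction of genotype and temperature, which tests whether these differences are unequal, was fitted on all 8 libraries. edgeR called no gene out of 19936 (0%, lowest adjusted p = 0.926), and 915 had an unadjusted p under 0.05 (4.59%). DESeq2 called 25 genes of 21621, and in all of them *pwr-2* minus Col-0 was higher at 27°C than at 23°C. With its prior it called 33, of which 28 went that way and 5 the other way. A larger or smaller difference at 27°C than at 23°C was therefore not shown for any single gene by edgeR. The common biological coefficient of variation at 23°C was 0.372.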

How the data were processed

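Counts per gene were deposited by the authors as a table for each temperature. Per the methods of the study and the submitters' processing notes, ribosomal RNA reads were removed, paired reads of 90 bp were aligned to TAIR10 with TopHat2 2.1.0 and Bowtie2 2.1.0, and fragments were counted with featureCounts 1.4.5. The strand setting is not given in the sources used here. Gene length, another column deposited by the authors, and their table of normalised values (a signal, counts divided by a factor per library) were not used for any value. Of 33602 gene identifiers 32835 had an entry in RefSeq TAIR10.1, which gave names, positions and promoters.

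Raw counts were tested with edgeR 4.0.16 in R 4.3.3 (quasi-likelihood test, TMM, filterByExpr, replicate number as a block, Benjamini-Hochberg, adjusted p under 0.05). DESeq2 1.42.0 was the other tool, and it left adjusted p-values as missing for genes it filtered. Both were run on simulated counts that spread less between libraries than these do. That run does not show how well either tool works on these libraries. Standard errors are the absolute log2 fold change over the root of edgeR's F. CPM used TMM library sizes, and log2 CPM a prior count of 2. A pair difference is *pwr-2* minus Col-0 within a replicate number, and 2-fold means at least 1 on that scale. List medians were described and not tested. Plots were made in matplotlib 3.10.9.

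The pairing comes from the study, whose model includes a batch effect between replicates. Replicate 1 minus replicate 2 in Col-0 correlated with the same difference in *pwr-2* (Pearson's r = 0.345) over 19079 nuclear genes. With the block, the p-values rest on how far the 2 pair differences of a gene disagree, together with a spread estimated over all genes. A shift between replicates that both genotypes share is taken out. Each pair difference compares a pooled sample of each genotype.

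The members of lists and the tests were chosen with earlier results of these data known. Genes were named from a set picked by a rule: PWR and its 5 neighbours on each side, the 12 higher and 12 lower nuclear genes with the lowest unadjusted p among those 2-fold apart in both pairs, every DESeq2 call, in each list up to 4 members on the same side in both pairs and up to 3 on opposite sides, and 6 genes of each kind with the largest opposite differences. Not every gene of that set is named in the text. Some further members of lists were named after their values had been seen, to describe a pathway step by step. Alternatives were other normalisations, filters, nuclear genes alone, no block, DESeq2, all 8 libraries in a single fit and leaving out each library, where a fit with the block has too few samples and the block was dropped.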

Additional observations from a re-analysis of the deposited data

Results flagged for a closer look

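Results were singled out where both 23°C pairs lay on the opposite side of 0 from both 27°C pairs. For lists this difference was not tested, and the 27°C medians cover the genes that passed the filter over all 8 libraries. The late embryogenesis genes were lower at 23°C (−1.87 and −2.63) and higher at 27°C (5.14 and 0.81), with a median interaction of 4.32. Mitochondrial genes went from −0.59 and −0.64 to 1.25 and 1.43, with a median interaction of 2.40, and the share of organelle counts differed between the same libraries. Smaller shifts of this kind were seen for heat-shock regulators (median interaction 0.19), iron and copper genes (−0.66) and annotated pseudogenes (0.22). Among the leading genes, the chitinase family gene AT2G43620 differed by −2.73 and −2.29 at 23°C and by 0.98 and 1.58 at 27°C. Its interaction was 3.86 on the log2 scale, with an edgeR adjusted p of 0.926.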

How the results depend on the processing

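edgeR called 0 genes at 23°C with and without the replicate block, with other normalisations, other count filters, nuclear genes alone, all 8 libraries in a single fit, and without any library. DESeq2 with the block called 46, and 35 with its prior. Without the block, an alternative added after seeing the data, DESeq2 called 402, 216, 104 and 2 genes when Col-0 replicate 1, Col-0 replicate 2, *pwr-2* replicate 1 or *pwr-2* replicate 2 was left out. For the interaction DESeq2 called 25 genes, and 33 with its prior. The log2 fold change of PWR was −2.30 in DESeq2 and −1.59 with its prior. Genes 2-fold higher in both pairs numbered 87 with at least 10 counts in every library, 85 on log2(CPM + 1) and 38 at 3-fold, and those lower 188, 164 and 85. The amino acid breakdown median was −1.24 with at least 10 counts, −1.39 without the block and −1.73 to −0.63 with a library left out. The seed median was −2.20 without the block and −4.86 to −0.32 with a library left out, and the triterpene median 0.62 to 1.99. With a library left out, AT2G30766 ranged from −0.92 to 10.32, SESA2 from −8.33 to 0.42 and SESA3 from −8.69 to 0.77, and each changed direction in 1 case. The fitted extremes of these 3 genes rest on counts near 0 and are no bounds. The cause of these changes was not tested. Low counts limit the precision of many of these differences: 83 of the 150 higher and 166 of the 298 lower genes were in the lowest of 4 expression bins.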
